A study of Homo sapiens with 4 samples.

Results

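Expression of 10 BCL2 family genes was described in cells labelled NB4 with and without GNE-987. The genes were chosen by name, as the rows of the gene table whose Ensembl identifier carries in GENCODE release 44 the symbol BCL2, BCL2L1, MCL1, BCL2A1, BCL2L11, PMAIP1, BBC3, BID, BAX or BAK1, and they are 10 of the 58735 genes in the table. RNA-seq had been carried out on 4 libraries from cells labelled NB4, the name of an established human cell line derived from acute promyelocytic leukemia. The 2 control libraries came from cells with no treatment according to the labels, and the 2 GNE-987 libraries from cells given 25 nM GNE-987 for 24 h, the dose and time described for this experiment by the study. GNE-987 is a degrader, a molecule with a pair of binding ends that ties a protein to a ubiquitin ligase so that the protein is destroyed. All libraries carry the label of 1 line, and nothing in the labels says that the libraries of a group were separate cultures, so P values measure the spread between these libraries, which may be technical.

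Proteins of the BCL2 family decide at the outer mitochondrial membrane whether a cell enters apoptosis. BAX and BAK1 form pores in that membrane, through which cytochrome c escapes and switches on the caspases. The pro-survival proteins encoded by BCL2, BCL2L1 (BCL-XL), MCL1 and BCL2A1 (BFL1) hold them in check, and the BH3-only proteins encoded by BCL2L11 (BIM), PMAIP1 (NOXA), BBC3 (PUMA) and BID bind the pro-survival proteins or act on BAX and BAK1 directly. In myeloid leukemia, BCL2 and MCL1 are known as proteins that the malignant cells depend on. RNA levels were measured here, and protein levels were not analysed.

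The deposited values are FPKM, fragments scaled by exon length and by library. The number of reads on genes was estimated from FPKM and GENCODE exon length, at which 53.4% of genes above 0 gave whole reads in all 4 libraries. The estimates were 19142227 and 19347286 for the controls and 12238111 and 12740693 for GNE-987, so low values are less precise with GNE-987. The libraries of a group differed by a median of 0.117 (control) and 0.176 (GNE-987) on the log2 scale. In bulk RNA, fewer cells of a type and less RNA per cell cannot be told apart. The cell type label was checked against markers. Of 9 granule and promyelocyte genes, 3 reached 1 FPKM in both control libraries and 5 in both GNE-987 libraries, with summed levels of 11.1 to 12.9 and 37.2 to 38.8 FPKM, and CTSG was at 0 in all 4 libraries. Of 13 erythroid genes, 13 reached 1 FPKM in both control libraries and 12 in both GNE-987 libraries, with sums of 506 to 548 and 767 to 881 FPKM. The lymphoid sum was at most 0.950 FPKM in the controls and at least 22.1 FPKM with GNE-987, where 1 of 4 genes reached 1 FPKM. The megakaryocyte sum was at most 0.485 and at least 3.84 FPKM, with 1 of 3 genes at that level with GNE-987 and PF4 at 0 in all 4 libraries. In the controls MPO was at 0.0246 and 0 FPKM and ELANE at 0 in both, while GATA1 was at 124 and 122 FPKM. These markers go against the label of a promyelocytic line, the identity of the cells was not settled here, and the part of the markers in the results for the BCL2 family was not tested.

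Of the 10 genes, 3 rose and 3 fell with GNE-987. BCL2L11, PMAIP1 and MCL1 rose in the deposited values, though none of them was called with GAPDH set equal and MCL1 was not called with recovered reads or after quantile normalization either. BAK1, BCL2 and BCL2L1 fell, BAX, BBC3 and BID did not pass, and BCL2A1 was too low to be tested. Genes were tested with limma on log2(FPKM + 0.1) where their mean was at least 0.5 FPKM, and a gene was called at an unadjusted P under 0.05 with a fold change over 2 or under 0.5. These 3 and 3 calls among 9 tested members stand beside 33.6% of all 16668 tested genes called higher and 24.9% called lower, and beside 24.0% and 31.7% of the 10996 protein-coding genes. The shares were near those of all genes, so the number of calls was not a result about the family. The groups did not overlap for 3 members that were higher and 4 that were lower, beside 47.5% and 41.6% of all tested genes. The median log2 fold change of the 9 members was -0.074, beside 0.17 over all tested genes and -0.29 over the protein-coding ones.

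**Figure D1:**
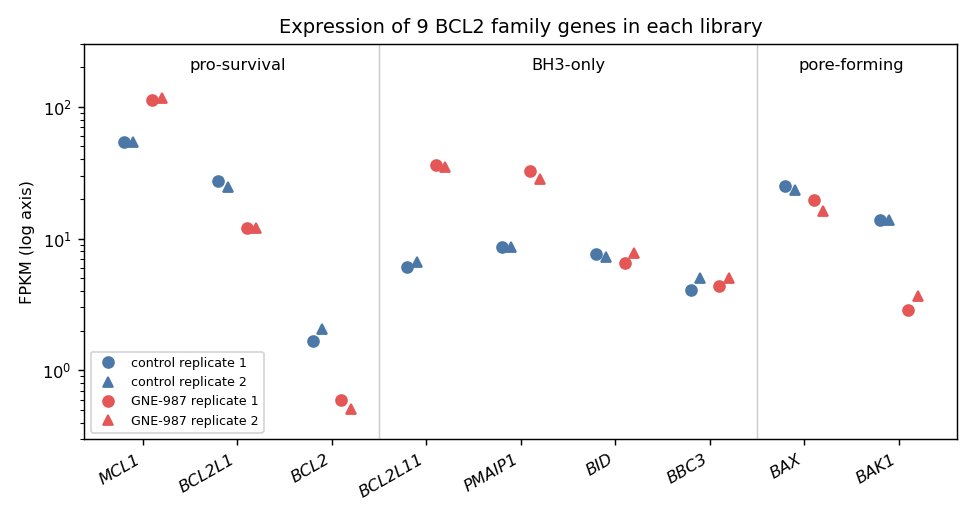
FPKM (log axis) of the 9 tested BCL2 family genes in each of the 4 libraries, grouped by role; circles are replicate 1, triangles replicate 2, blue the control and red GNE-987. In the deposited scaling MCL1, BCL2L11 and PMAIP1 lie higher with GNE-987 and BCL2L1, BCL2, BAX and BAK1 lower, while the groups overlap for BID and BBC3.

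Among the pro-survival genes MCL1 was called higher in the deposited values, though with none of the 3 other scalings, while BCL2L1 and BCL2 were called lower. MCL1 (ENSG00000143384, hg38 chromosome 1, 150560895 to 150579738, minus strand) encodes a pro-survival protein with a very short life that binds BIM and NOXA tightly. It was at 54.0 and 54.4 FPKM in the controls and reached 113 and 117 FPKM with GNE-987. The groups lay far apart, and each pair was close together. The increase was 2.12-fold on the log2(FPKM + 0.1) scale, which is a log2 fold change of 1.08 (SE 0.039, limma, Benjamini-Hochberg adjusted P = 0.000211). The increase was just past the 2-fold limit, it fell to 0.31 on the log2 scale when libraries were scaled to the total of recovered reads or quantile-normalized, and it turned to -0.77 with GAPDH set equal.

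BCL2L1 (ENSG00000171552, chromosome 20, 31664452 to 31723989, minus strand) encodes BCL-XL, the pro-survival protein on which maturing red cells and platelets depend. Its level was 27.4 and 24.6 FPKM in the controls and 12.0 FPKM in both GNE-987 libraries. Every GNE-987 value was below every control value. The level was 2.15-fold lower, with a log2 fold change of -1.11 (SE 0.073, limma, Benjamini-Hochberg adjusted P = 0.000631), and stayed lower under all 3 other scalings, at log2 fold changes of -1.30 to -2.93.

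BCL2 (ENSG00000171791, chromosome 18, 63123346 to 63320128, minus strand) encodes the founding member of the family and the target of the drug venetoclax. It was low throughout, at 1.68 and 2.07 FPKM in the controls and 0.600 and 0.510 FPKM with GNE-987, which rest on 455, 539, 59 and 53 recovered reads. The groups did not overlap. BCL2 was 3.01-fold lower with GNE-987 (log2 fold change -1.59, SE 0.20, limma, Benjamini-Hochberg adjusted P = 0.00316), the least precise of the 6 changes that passed. Its log2 fold change was -2.21 with recovered reads, -2.96 with GAPDH set equal and -3.10 after quantile normalization, and with a pseudocount of 1 it was -0.88, short of the fold limit.

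BCL2A1 (ENSG00000140379, chromosome 15, 79960892 to 79971196, minus strand), a short-lived pro-survival gene best known as a target of NF-kappaB, was at 0 in both control libraries. With GNE-987 it stood at 0.110 and 0.104 FPKM, about 1 read in each library. A single read in each library is under the 3 reads taken as the floor of detection, so no fold change is given, although limma called the gene higher when all genes were kept without a filter on low values.

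The BH3-only genes split into a pair that rose several-fold and a pair that did not pass the test. BCL2L11 (ENSG00000153094, chromosome 2, 111119378 to 111168444, plus strand) encodes BIM, which binds every pro-survival protein of the family and can act on BAX and BAK1 directly. BCL2L11 was at 6.10 and 6.63 FPKM in the controls and reached 36.0 and 35.0 FPKM with GNE-987. The 2 groups were far apart and the libraries within each were close. The increase was 5.51-fold, the largest among the members, with a log2 fold change of 2.46 (SE 0.065, limma, Benjamini-Hochberg adjusted P = 0.000150), and it was 2.29, 1.70 and 0.62 on the log2 scale after quantile normalization, scaling to recovered reads and scaling to GAPDH. This change ranked at percentile 78.6 of all tested genes and percentile 88.5 of the protein-coding ones.

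PMAIP1 (ENSG00000141682, chromosome 18, 59899996 to 59904305, plus strand) encodes NOXA, a small BH3-only protein that binds MCL1 and BFL1. PMAIP1 was at 8.67 and 8.56 FPKM in the controls and at 32.5 and 28.3 FPKM with GNE-987, so that the lower GNE-987 value was still well above both controls. It rose 3.49-fold (log2 fold change 1.80, SE 0.086, limma, Benjamini-Hochberg adjusted P = 0.000332), to 1.66 and 1.04 on the log2 scale with quantile normalization and with recovered reads, and its sign turned to -0.039 with GAPDH set equal.

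BBC3 (ENSG00000105327, chromosome 19, 47220822 to 47232766, minus strand) encodes PUMA, a BH3-only protein that binds every pro-survival protein of the family. Its values were 4.06 and 5.03 FPKM in the controls and 4.36 and 4.99 FPKM with GNE-987. Both GNE-987 values lay between the controls, with a log2 fold change of 0.045 (SE 0.15, limma, Benjamini-Hochberg adjusted P = 0.794). With scaling to recovered reads the value was -0.70 and with GAPDH set equal -1.73.

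BID (ENSG00000015475, chromosome 22, 17734138 to 17774770, minus strand) encodes the protein that caspase-8 cleaves to carry the signal of death receptors to mitochondria. It was at 7.69 and 7.28 FPKM in the controls against 6.51 and 7.75 FPKM with GNE-987. The GNE-987 libraries enclosed the controls, with a log2 fold change of -0.074 (SE 0.11, limma, Benjamini-Hochberg adjusted P = 0.572). It was -0.83 with recovered reads and -1.88 with GAPDH set equal.

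The promoters of BCL2L11 and PMAIP1, the members with the largest increases, are shown from RefSeq (GRCh38.p14), from 250 bases before to 50 bases after the annotated start, 5′ to 3′ on the gene's strand. The BCL2L11 window is chr2:111120664-111120963 on the plus strand and the PMAIP1 window chr18:59899746-59900045 on the plus strand. Capitals mark a match to the FOXO motif TGTTTAC or its reverse complement.
BCL2L11: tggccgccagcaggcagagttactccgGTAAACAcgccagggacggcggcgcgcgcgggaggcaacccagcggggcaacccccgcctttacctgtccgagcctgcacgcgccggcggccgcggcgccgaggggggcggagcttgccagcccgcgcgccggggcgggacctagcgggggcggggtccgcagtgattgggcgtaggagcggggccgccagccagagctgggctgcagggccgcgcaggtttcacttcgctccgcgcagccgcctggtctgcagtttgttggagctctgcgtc
PMAIP1: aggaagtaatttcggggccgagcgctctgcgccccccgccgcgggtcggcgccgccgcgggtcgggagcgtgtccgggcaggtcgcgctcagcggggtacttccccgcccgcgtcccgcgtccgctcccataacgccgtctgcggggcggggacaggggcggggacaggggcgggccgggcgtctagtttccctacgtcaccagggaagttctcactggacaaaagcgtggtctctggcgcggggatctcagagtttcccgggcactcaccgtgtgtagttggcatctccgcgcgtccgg
The BCL2L11 window held 1 FOXO match, GTAAACA, which starts 223 bases before the start, and 3.42% of 35116 RefSeq promoter windows held the motif. The PMAIP1 window held no match to any of the 6 motifs searched on both strands, which were the FOXO motif TGTTTAC, the GATA motif in its forms AGATAA or, in the other form, TGATAA, the cAMP response element TGACGTCA, the STAT motif TTCNNNGAA and the E-box CACGTG, the site of MYC. Windows with AGATAA made up 10.3% of all promoters, TGATAA 7.53%, TGACGTCA 1.85%, TTCNNNGAA 7.66% and CACGTG 7.26%. A match describes these letters only and does not show that a factor binds.

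The pore-forming genes were both below the controls with GNE-987, BAK1 past the fold limit and BAX short of it, and the difference between these changes was not tested. BAK1 (ENSG00000030110, chromosome 6, 33572547 to 33580293, minus strand) encodes the pore former that resides at mitochondria and is held there mainly by MCL1 and BCL-XL. It was at 13.8 and 13.7 FPKM in the controls and at 2.87 and 3.69 FPKM with GNE-987, resting on 702, 672, 53 and 72 reads. The groups did not overlap. BAK1 was 4.13-fold lower (log2 fold change -2.05, SE 0.14, limma, Benjamini-Hochberg adjusted P = 0.000700), the largest decrease among the members, and it ranked at percentile 8.29 of all tested genes. It was lower under every scaling, at -2.17, -2.79 and -3.79 on the log2 scale with quantile normalization, recovered reads and GAPDH.

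BAX (ENSG00000087088, chromosome 19, 48954815 to 48961798, plus strand) encodes the pore former that waits in the cytosol and moves to mitochondria on activation. BAX was at 25.2 and 23.4 FPKM in the controls and at 19.7 and 16.2 FPKM with GNE-987. Both GNE-987 values were below both controls, but the log2 fold change of -0.44 (SE 0.12, limma, Benjamini-Hochberg adjusted P = 0.0292) did not reach the fold limit. It was past that limit with recovered reads, at -1.20, and with GAPDH set equal, at -2.27.

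The promoters of the pore-forming pair are shown from the same source, for the member with the largest decrease and its partner. The BAK1 window is chr6:33580227-33580526 on the minus strand and the BAX window chr19:48954625-48954924 on the plus strand. Capitals mark the E-box CACGTG.
BAK1: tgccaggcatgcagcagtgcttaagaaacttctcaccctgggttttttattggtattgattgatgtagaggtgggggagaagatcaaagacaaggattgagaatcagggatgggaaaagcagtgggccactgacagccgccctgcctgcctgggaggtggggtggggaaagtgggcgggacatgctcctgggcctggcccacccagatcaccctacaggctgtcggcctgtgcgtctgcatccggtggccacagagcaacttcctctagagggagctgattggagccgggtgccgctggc
BAX: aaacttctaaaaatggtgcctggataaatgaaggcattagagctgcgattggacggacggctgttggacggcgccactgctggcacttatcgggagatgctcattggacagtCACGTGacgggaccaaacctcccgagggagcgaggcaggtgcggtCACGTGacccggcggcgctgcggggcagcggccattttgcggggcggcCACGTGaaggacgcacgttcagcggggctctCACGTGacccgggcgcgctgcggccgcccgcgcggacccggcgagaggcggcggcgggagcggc
BAX held 4 E-boxes, starting 138, 93, 45 and 14 bases before the start, and BAK1 held no match to the 6 motifs. Promoter windows were present for 9 of the 10 members, all but MCL1, and 8 of their 14 windows held no match. The remaining matches were 1 STAT motif in BCL2A1, 1 E-box in BBC3, and 1 E-box in each of 2 BID windows that overlap and share it.

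The order of the levels changed between the groups. In the control libraries the order was MCL1, BCL2L1, BAX, BAK1, PMAIP1, BID, BCL2L11, BBC3, BCL2 and BCL2A1, from the mean of 54.2 FPKM for MCL1 downwards. BCL2L1, at 26.0 ± 2.02 FPKM (SD, n = 2), and BAX, at 24.3 ± 1.27 FPKM (SD, n = 2), overlapped in that order, while the other neighbours were separate in both libraries. With GNE-987 the order was MCL1, BCL2L11, PMAIP1, BAX, BCL2L1, BID, BBC3, BAK1, BCL2 and BCL2A1, and all neighbours were separate. BCL2L11 moved from rank 7 at 6.36 ± 0.373 FPKM to rank 2 at 35.5 ± 0.692 FPKM, and BAK1 from rank 4 at 13.8 ± 0.0355 FPKM to rank 8 at 3.28 ± 0.581 FPKM (SD, n = 2 in each group).

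Ratios of members within a library do not change when a library is multiplied by a single factor, as in scaling to recovered reads or to GAPDH, but they do with quantile normalization. The ratio of BCL2L11 to BCL2L1, the BH3-only gene that rose most against the main pro-survival gene that fell, was 0.222 and 0.270 in the control libraries and 2.99 and 2.92 with GNE-987. BCL2L11 was thus below BCL2L1 in both controls and above it in both GNE-987 libraries, with a difference of 3.57 on the log2 scale. The ratio of BCL2L11 to MCL1 was 0.113 and 0.122 in the control libraries and 0.318 and 0.300 with GNE-987, so BIM RNA stayed below MCL1 RNA in all 4 libraries. The ratio of PMAIP1 to MCL1, a BH3-only gene and its binding partner, went from 0.160 and 0.157 to 0.287 and 0.242. That of BAX to BCL2L1 was 0.920 and 0.954 against 1.64 and 1.35, and that of MCL1 to BCL2L1 1.97 and 2.21 against 9.42 and 9.72. The pairs were chosen with earlier results known, and the ratios are given as values with no test. Each ratio has the member with the larger log2 fold change on top, so it had to rise. Ratios of BAX, BAK1, BBC3 or BID to MCL1 went the other way, since MCL1 had the larger log2 fold change.

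**Figure D2:**
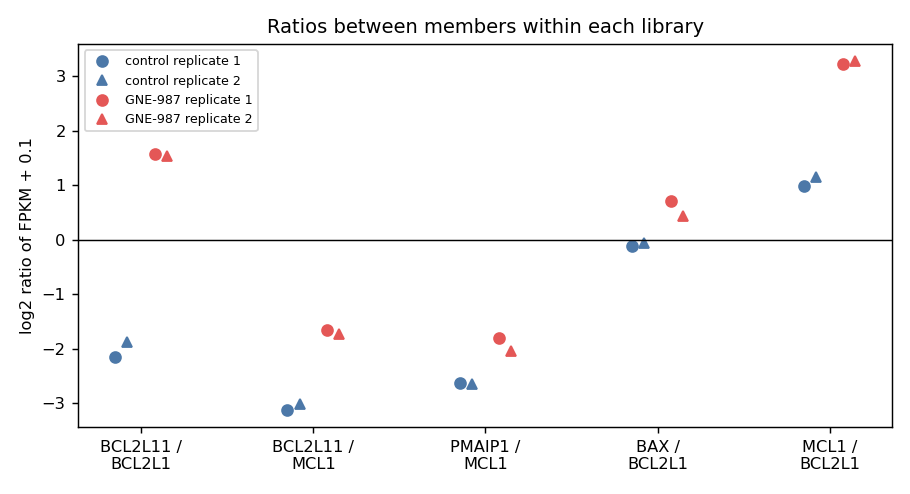
Log2 ratio of FPKM + 0.1 between pairs of BCL2 family genes within each library (circles replicate 1, triangles replicate 2, blue control, red GNE-987). The 5 ratios, each with the member of the larger log2 fold change on top, are above both controls in each GNE-987 library. The ratio of BCL2L11 to BCL2L1 crosses the line of equal levels at 0.

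The makeup of each role shifted in the same libraries. MCL1 made up 65.0 and 67.1% of the summed pro-survival FPKM in the controls and 89.9 and 90.2% with GNE-987, while BCL2L1 went from 33.0 and 30.3% to 9.54 and 9.28%. BCL2 stayed a small share, with 2.02 and 2.56% in the controls and 0.476 and 0.395% with GNE-987. Among the BH3-only genes BCL2L11 went from 23.0 and 24.1% to 45.4 and 46.0% and PMAIP1 from 32.7 and 31.1% to 40.9 and 37.2%. BID and BBC3, whose own levels did not pass the test, took smaller shares of a larger sum, BID from 29.0 and 26.5% to 8.21 and 10.2% and BBC3 from 15.3 and 18.3% to 5.50 and 6.56%. BAX made up 64.7 and 63.0% of the pore-forming sum in the controls and 87.3 and 81.5% with GNE-987. The pro-survival sum was 83.1 and 81.0 FPKM in the controls and 126 and 129 FPKM with GNE-987, the BH3-only sum 26.5 and 27.5 against 79.3 and 76.0 FPKM, and the pore-forming sum 39.0 and 37.2 against 22.6 and 19.9 FPKM. The sums change with any scaling between libraries, and the shares with quantile normalization but not with a single factor per library.

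**Figure D3:**
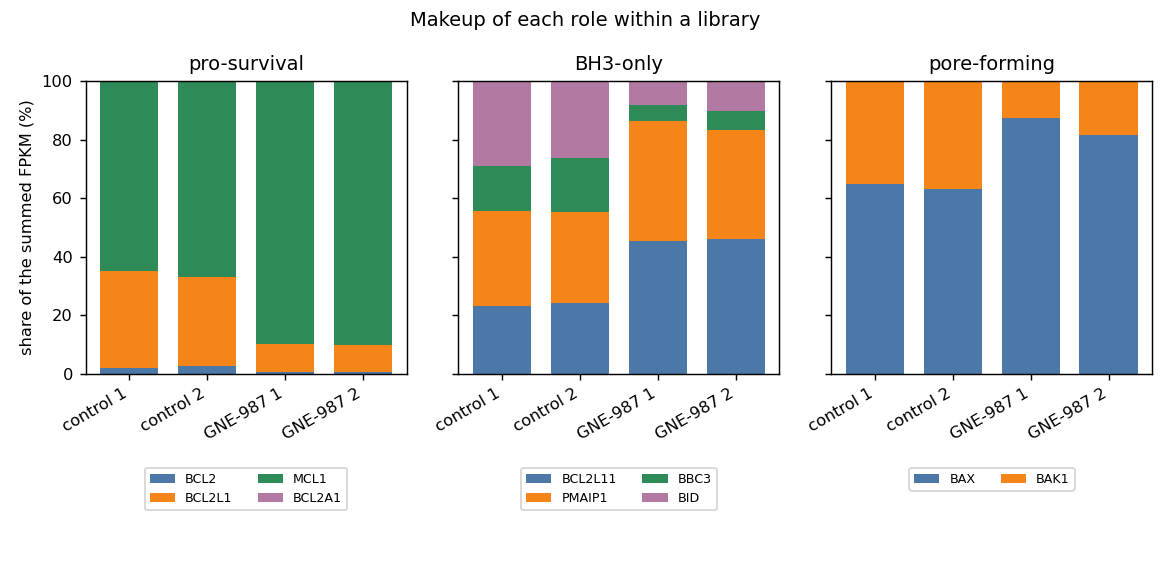
Share of the summed FPKM of each role (%) taken by each gene, 1 stacked bar per library, with each bar filled to the whole sum. With GNE-987, MCL1 fills at least 89.9% of the pro-survival bars, BCL2L11 and PMAIP1 most of the BH3-only bars, and BAX at least 81.5% of the pore-forming bars.

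How far the members moved depends on what is held equal between the libraries. The deposited values have equal medians of ratios between the libraries. In them a library's estimated reads on genes were set against the reads used for its scaling. Their ratio was 0.840 and 0.865 in the controls and 1.46 and 1.44 with GNE-987. Scaling to the total of recovered reads lowered the median log2 fold change of all genes by 0.73, quantile normalization lowered it by 0.42, and setting GAPDH equal lowered it by 1.70. GAPDH itself was 3.62-fold higher with GNE-987 in the deposited values. The calls over all genes were 5602 higher and 4148 lower in the deposited values, 4186 (25.1%) and 6608 (39.6%) with recovered reads, 4235 (25.4%) and 5464 (32.8%) after quantile normalization, and 3004 (18.0%) and 9694 (58.2%) with GAPDH set equal. Among the 9 members, 2 were called higher and 4 lower with recovered reads, and 2 and 3 after quantile normalization. With GAPDH set equal, 0 were called higher and 6 lower. In that scaling 1 member, BCL2L11, was above the controls in limma at an unadjusted P under 0.05 without reaching the fold limit. BCL2L1, BCL2 and BAK1 were called lower in each of these 4 scalings. BCL2L11 had a positive log2 fold change in each of them, with a call in all but the GAPDH scaling, and of these 4 scalings MCL1 was called only in the deposited values. Relative to the median of all genes, MCL1 stood at 0.91, PMAIP1 at 1.63, BCL2L11 at 2.29, BAX at -0.61 and BAK1 at -2.22 on the log2 scale in the deposited values.

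**Figure D4:**
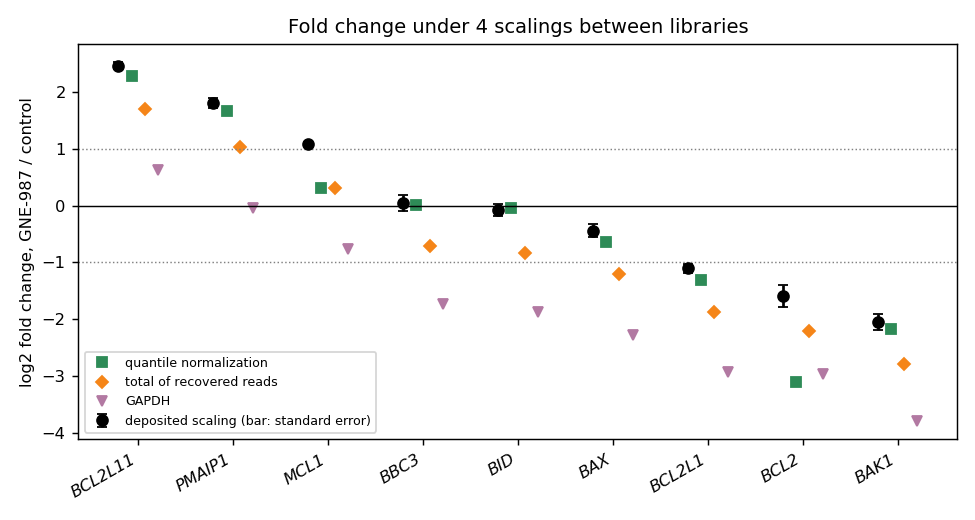
Log2 fold change (GNE-987 over control) of the 9 tested members under 4 scalings between libraries; black circles are the deposited values with their standard error from limma, and dotted lines mark a 2-fold change. BCL2L1, BCL2 and BAK1 lie below -1 under all 4 scalings, whereas MCL1 lies above 1 only in the deposited values and below 0 with GAPDH set equal.

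Genes that overlap a member could share reads with it, since the use of strand in the counting was not stated. BCL2L11 is overlapped on the opposite strand by the noncoding gene MIR4435-2HG, which went the other way, from 4.24 and 4.08 FPKM to 0.913 and 1.23 FPKM. BAK1 is overlapped by the pseudogene GGNBP1 on the opposite strand, at 0.125 and 0 FPKM in the controls and 1.79 and 2.54 FPKM with GNE-987, and its processed pseudogenes BAK1P1 and BAK1P2 were at 0.751 FPKM or less in all 4 libraries. The antisense genes over BCL2L1, BCL2L1-AS1 and ABALON, were under 1 FPKM in all 4 libraries, and the noncoding genes over BCL2 at 0.318 FPKM or less. The part of these genes in the members' values was not tested.

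MCL1 had more around it. In GENCODE release 44 its main transcript has 3 exons at 150574558 to 150579610, whereas the gene as a whole reaches to 150560895 and covers other genes. After the values had been seen, the 20000 bases past the 3′ end of each member's main transcript were looked at. Genes that overlap the main transcript itself were left out, also where they reach into these bases. The 5 genes listed in the table past MCL1 were all called higher, beside 33.6% of all tested genes. RN7SL600P, 5289 bases past the end, was at 0 and 0.151 FPKM in the controls and 58.8 and 57.2 FPKM with GNE-987, and RN7SL473P, 7698 bases past it, at 0.291 and 0.302 against 75.6 and 83.0 FPKM. Further on, ADAMTSL4-AS1 was at 0.199 and 0.310 against 56.4 and 57.1 FPKM, ADAMTSL4 on the opposite strand at 15.9 and 16.1 against 131 FPKM in both, and ADAMTSL4-AS2 at 2.94 and 1.97 against 138 and 143 FPKM. Their log2 fold changes ran from 3.03 for ADAMTSL4 to 8.52 for RN7SL600P, all above the 1.08 of MCL1. Past BAX the noncoding gene ENSG00000267898 was at 0.321 and 0.717 against 10.1 and 11.3 FPKM, and the ferritin gene FTL at 1729 and 1912 against 7483 and 7432 FPKM, both called higher while BAX was lower. GYS1, past BAX on the opposite strand, was at 6.22 and 6.78 against 12.5 and 12.1 FPKM and was not called. Past BID, BCL2L13 was called lower, past BBC3 SAE1 was not called, and BCL2, BCL2L11 and PMAIP1 had no gene in the window apart from any left out for overlap. The genes past BAK1, BCL2A1 and BCL2L1 were at 0.163 FPKM or less in all 4 libraries. Whether reads from these neighbours entered the value of MCL1 was not tested.

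**Figure D5:**
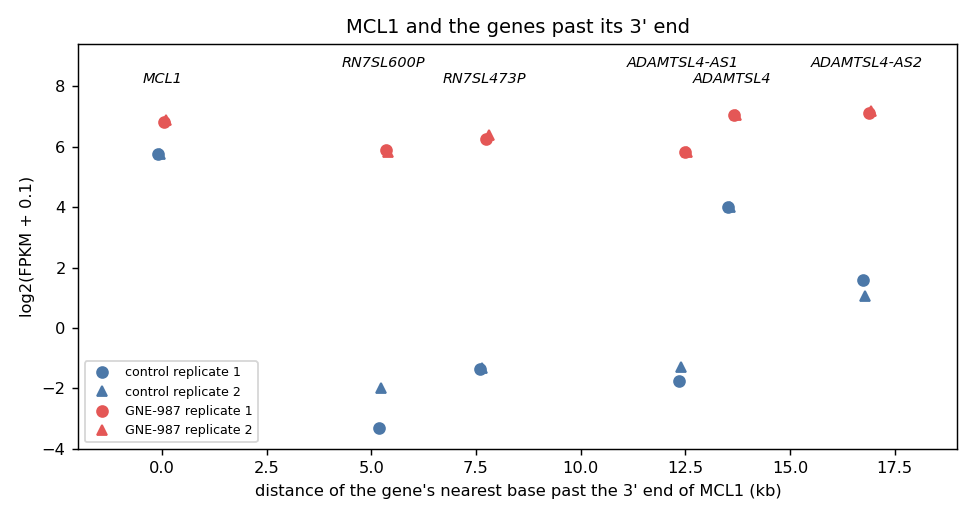
log2(FPKM + 0.1) of MCL1 and of the 5 genes listed past its 3′ end against their distance from that end in kb, for each library (circles replicate 1, triangles replicate 2, blue control, red GNE-987). All 5 genes are higher in both GNE-987 libraries, with gaps between the groups larger than that of MCL1.

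The other genes of the pathway moved in both directions, and their counts are to be read beside the 33.6% and 24.9% of all tested genes called higher and lower. Of 13 further BCL2 family genes 7 were tested, of which 1 was called higher and 3 lower, with a median log2 fold change of 0.098. BCL2L2, which encodes the pro-survival protein BCL-W, was at 7.53 and 8.19 FPKM in the controls and 1.34 and 1.41 FPKM with GNE-987, a 5.40-fold decrease. BOK, a relative of BAX and BAK1, went from 2.52 and 2.58 to 0.529 and 0.460 FPKM, or 4.46-fold lower. BCL2L12 went from 35.7 and 34.5 to 72.9 and 69.8 FPKM, a log2 fold change of 1.02 that fell to 0.25 with recovered reads and turned to -0.83 with GAPDH set equal. BAD, the BH3-only gene that growth factor signals hold inactive, was at 2.70 and 2.57 FPKM against 2.73 and 2.92 FPKM and was not called.

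Of 10 genes for proteins that act at or leave the mitochondrion, all 10 were tested, with 3 called higher, 3 lower and a median of -0.081 on the log2 scale. DIABLO, whose protein frees caspases from their inhibitors, went from 0.295 and 0.374 FPKM to 8.90 and 8.46 FPKM, and B3GNT4, which overlaps it on the opposite strand, from 0.120 and 0.0771 to 37.5 and 39.6 FPKM. The part of B3GNT4 in the DIABLO value was not tested. APAF1, the scaffold on which cytochrome c activates caspase-9, went from 2.39 and 2.48 to 6.34 and 6.49 FPKM, and CYCS, cytochrome c itself, from 72.3 and 73.0 to 151 and 147 FPKM, with log2 fold changes of 1.36 and 1.03 that turned to -0.43 and -0.82 with GAPDH set equal. VDAC3, a channel of the outer membrane, fell 2.72-fold, and HTRA2, a released protease, fell 2.35-fold.

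All 13 genes of a list of transcription factors known to act on members were tested, with 2 called higher, 5 lower and a median of -0.46 on the log2 scale. GATA1 and STAT5A, known to keep BCL2L1 on in erythroid cells, fell from 124 and 122 to 15.1 and 12.5 FPKM and from 114 and 115 to 17.1 and 16.6 FPKM. STAT5B fell as well, from 35.8 and 36.7 to 11.4 and 10.9 FPKM. FOXO3, a known activator of BCL2L11, rose from 2.97 and 3.24 to 13.5 and 13.3 FPKM, a log2 fold change of 2.07 that was 0.24 with GAPDH set equal. FOXO1, listed for the same motif, went the other way, from 1.09 and 1.04 to 0.614 and 0.636 FPKM. Its log2 fold change of -0.69 was short of the fold limit. STAT3, an activator of MCL1 in many cells, rose from 21.1 and 24.7 to 83.5 and 81.8 FPKM, with a log2 fold change of 1.85 that was 0.00071 with GAPDH set equal. Whether any factor of this list acted on a member in these cells was not tested. MYC, a transcription factor of cell growth whose excess primes cells for apoptosis, fell from 91.5 and 90.4 to 40.3 and 39.5 FPKM. BCL2L2, BCL2L12, HTRA2 and STAT5A each overlap a gene on the opposite strand (PPP1R3E, IRF3, AUP1 and STAT5B), and BCL2L2 also overlaps BCL2L2-PABPN1 on its own strand. PPP1R3E was at 2.22 and 2.56 FPKM in the controls and 1.27 and 1.06 FPKM with GNE-987. AUP1, over HTRA2, was at 67.0 and 65.0 against 33.1 and 32.6 FPKM, and IRF3, over BCL2L12, at 21.5 and 19.9 against 17.7 and 15.9 FPKM. The part of these genes was not tested.

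Of 6 genes for the turnover of pro-survival proteins, 3 were called higher and 0 lower by limma, with a median of 0.21 on the log2 scale, and the other 3 were below the controls at an unadjusted P under 0.05 without reaching the fold limit. USP9X, which removes ubiquitin from MCL1, went from 7.30 and 7.94 to 28.4 and 28.0 FPKM. TPT1, whose protein binds and steadies MCL1, went from 39.8 and 37.5 to 165 and 155 FPKM. Neither was called with GAPDH set equal, where USP9X had a log2 fold change of 0.035 and TPT1 of 0.19. FBXW7, the remaining gene called higher, went from 1.22 and 1.25 to 2.82 and 3.17 FPKM. Its log2 fold change of 1.21 turned to -0.52 with GAPDH set equal. HUWE1, a ubiquitin ligase of MCL1, was at 23.4 and 26.6 FPKM against 14.5 and 14.2 FPKM, short of the fold limit. What the changes in these genes meant for MCL1 protein was not tested. With recovered reads 3 of the 6 were called lower and 2 higher, TPT1 at 1.28 and USP9X at 1.11 on the log2 scale. In that scaling 39.6% of all tested genes were called lower and 25.1% higher. The small nucleolar RNA gene SNORA31, which overlaps TPT1 on its own strand, was at 0.334 and 0 FPKM against 1.84 and 4.36 FPKM. Its part in the TPT1 value was not tested.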

How the data were processed

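RNA-seq had been run on 4 libraries of cells labelled NB4, 2 control and 2 GNE-987, grouped by their labels. Reads were filtered by the authors, mapped to hg38 with HISAT2 2.0.5 (submitters' processing notes) and deposited as FPKM per gene and library. The counting program, its annotation and its use of strand are not given in the sources used here. Of the 58735 identifiers, 99.1% were in GENCODE release 44, which gave symbols and positions. Every column of the table was used.

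Since FPKM are not counts, log2(FPKM + 0.1) of the deposited values was tested with limma 3.58.1 in R 4.3.3 (empirical Bayes with an intensity trend, no replicate block) over 16668 genes whose mean reached 0.5 FPKM, and P values were Benjamini-Hochberg adjusted over all of them. The step was tested on simulated data. Reads were recovered as FPKM times exon length at a tolerance of 0.01 read, and 53.4% of genes above 0 were whole in all 4 libraries at their GENCODE length. BAX and BAK1 were among these, BCL2A1 was an estimate, and the other 7 members were whole at another length, which is a weaker test. The estimated depth of 12238111 to 19347286 reads limits precision by counting error beside the spread between libraries. Same-numbered libraries did not deviate together (correlation 0.0054), and nothing in the labels pairs them.

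Named genes were all 10 members, the 2 largest called changes in each direction of each list, and genes whose role a sentence needs. CYCS, MYC, BAD, HUWE1, FBXW7, FOXO1 and STAT5B are of the last kind. A gene of the transcription factor list, and a further list, are not reported here. The members and the lists were chosen with earlier results of these data known. The alternatives were other scalings, pseudocounts of 1 and 0.01, no filter, a minimum of 1 FPKM, a threshold on adjusted P, limma's test against a 2-fold change, a replicate block, limma-voom on recovered reads and leaving out each library. Median-ratio scaling gave the deposited values again. Apart from limma-voom, no test for counts was run.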

Additional observations from a re-analysis of the deposited data

How the results depend on the processing

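Over the alternatives tried, BAK1 kept its sign and its call in 16 of 16, and BCL2L1, BCL2 and BCL2L11 kept their sign in all 16 and their call in 15. These counts include settings that leave the log2 fold change as it was, so that its sign could not change. Such settings were median-ratio scaling, the other filters, the other thresholds and the replicate block. Median-ratio scaling repeats the main fit. BCL2 reached -0.88 on the log2 scale with a pseudocount of 1, BCL2L1 and MCL1 did not pass limma's test against a 2-fold change (unadjusted P = 0.113 and 0.0514 from the limma fit across all genes), and BCL2L11 was at 0.62 with GAPDH set equal. MCL1 was at 0.31 with quantile normalization and with recovered reads and at 0.32 with limma-voom on recovered reads. With GAPDH set equal, MCL1 turned to -0.77, PMAIP1 to -0.039, BBC3 to -1.73, BCL2L12 to -0.83 and APAF1 to -0.43. BBC3 was also at -0.70 with recovered reads and -0.72 with limma-voom. BBC3 ran from -0.11 to 0.20 and BID from -0.20 to 0.050 when 1 library was left out. BAX was called at -2.27, -1.20 and -1.21 with GAPDH, recovered reads and limma-voom, and BID at -1.88 with GAPDH.

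Higher and lower calls with GAPDH set equal were 0 and 6 for the members, 0 and 5 for the other BCL2 family genes, 1 and 7 for mitochondrial release, 0 and 10 for the transcription factors, and 0 and 3 for turnover. They stand beside 18.0% and 58.2% of all tested genes called higher and lower in that scaling. With recovered reads, 0 of the other family genes were higher, mitochondrial release had 1 and 5, and turnover had 2 higher and 3 lower. The shares of all tested genes were then 25.1% higher and 39.6% lower. After quantile normalization 0 of the other family genes were higher, and turnover had 2 higher and 1 lower. The shares of all tested genes were 25.4% higher and 32.8% lower in that setting. The log2 differences of the ratios of BCL2L11 to BCL2L1 and to MCL1 were 3.36 and 1.24 with a pseudocount of 1. Over all genes, calls were 8757 and 5146 with no filter, and 4744 and 2954 with a pseudocount of 1. The cause was not tested.

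In a fit with a replicate block, the members kept 3 higher and 3 lower calls, and all genes had 5667 and 4186. Same-numbered libraries had deviations correlated at 0.0054, so the numbers were not taken as pairs. Leaving out any 1 library left 3 members higher and 3 lower, and the lone library was then assumed to vary like the other group. BCL2 with GNE-987 rests on 53 to 59 reads and BAK1 on 53 to 72. Apart from limma-voom on recovered reads, tests meant for counts were not used.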
